A study of Callithrix jacchus with 4 samples.

Results

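The rows described here are 28 target mRNAs of FMRP, the RNA-binding protein made from FMR1. They were taken by gene symbol, from what is known of FMRP binding. They encode motors and cytoskeletal scaffolds, chromatin regulators, ubiquitin enzymes, and adhesion and surface proteins. Others encode proteins of membrane trafficking and calcium export, and signalling and lipid enzymes. All 28 had a row in the deposited table of 35205 genes. The list was meant to leave out receptors, channels and synaptic scaffolds. It still holds LRP1, an endocytic receptor, as well as SYN1 and DNM1, which work at synaptic vesicles. The list is therefore called here by its rule and not as a list outside the synapse. Transcript lengths were not used here, so the length of the mRNAs was not checked.

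RNA-seq counts came from common marmoset (Callithrix jacchus) brain at postnatal day 5, with 2 wild-type libraries and 2 libraries from FMR1 mutants made with CRISPR/Cas9. The design text names cortex, striatum and hippocampus as the forebrain samples, while each label gives the tissue as brain. The labels describe neither the FMR1 allele, nor whether an animal was mosaic, nor its sex. They also do not say that the 2 libraries of a group came from separate animals, so p-values refer only to these samples. The spread behind each p-value was taken mostly from many genes together (2 residual against a median of 31.6 prior degrees of freedom).

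FMRP binds mRNAs mostly within their coding sequence, travels with polyribosomes and slows the translation of many of the transcripts it binds. In the brain, the mRNAs that are crosslinked to it encode many synaptic proteins and also many large proteins of transport, chromatin and protein turnover. RNA-seq measures the amount of mRNA and not its translation, so an effect on protein synthesis alone would not be seen in these counts.

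Totals were between 12331639 and 13455702 counts per library. FMR1 itself had 1144 and 966 counts in the wild-type libraries, against 1062 and 1603 in the mutant libraries, so the groups overlapped. A CRISPR mutation need not change the amount of RNA, and these counts do not check the genotype labels. The neuronal markers looked for had a row in 9 of 10 cases, and all 9 were tested. At the adjusted threshold given below, 1 fell and 0 rose, and 5 lay on the higher side in mutants and 4 on the lower. Their summed level was 7502 and 6971 CPM (counts scaled by library size) in the wild-type libraries and 7864 and 7557 CPM in the mutant libraries. Of 8 microglial markers, 2 fell and 0 rose. The part of such differences in the values of the members was not tested. Wild-type replicate 1 stood apart in thalamic markers, whose summed level was 280.4 CPM there and 117 to 128 CPM in the other libraries. In the comparison of all 16956 genes tested, 378 changed at an adjusted p under 0.05 (edgeR quasi-likelihood test, Benjamini-Hochberg adjustment), which is 2.23% of them.

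None of the FMRP target mRNAs passed the test. Of the 28, 27 had enough counts to be tested, and 0 rose and 0 fell, against 0.661% of all tested genes called higher and 1.57% called lower in mutants. DESeq2 and limma-voom also called 0 members. At an unadjusted p under 0.05, edgeR had 4 members lower and 0 higher. They were APC, ATP2B2, LRP1 and DNM1. The 4 make up 14.8% of the 27, whereas 7.75% of all tested genes were lower and 5.64% higher at the same level. With 1 library left out, the number of members lower at this level ran from 1 (without wild-type replicate 2, and also without mutant replicate 1) to 6 (without mutant replicate 2). Groups did not overlap in 12 of the 27, which is 44.4% against 43.1% of all tested genes. Of these 12, 11 were lower in the mutants and 1 was higher, where the background was nearly even at 21.8% lower and 21.4% higher. Whether the members lie lower than other genes was not tested.

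The tested members were mostly on the lower side by small amounts. A total of 20 had a log2 fold change (mutant over wild-type throughout) below 0 and 7 above it, and 50.7% of all tested genes were below 0. The median was -0.04 for the members and -0.00396 for all tested genes. Standard errors ran from 0.11 to 0.18. For 24 of the 27, the whole 95% interval lay within 0.5 of 0 on the log2 scale, and across members the intervals reached from -0.58 to 0.67. The counts were deep, as 26 of the 27 lay above the 75th percentile of tested genes by mean CPM. Of the 4239 genes above it, 3.16% were called and the median log2 fold change was 0.0034.

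**Figure D1:**
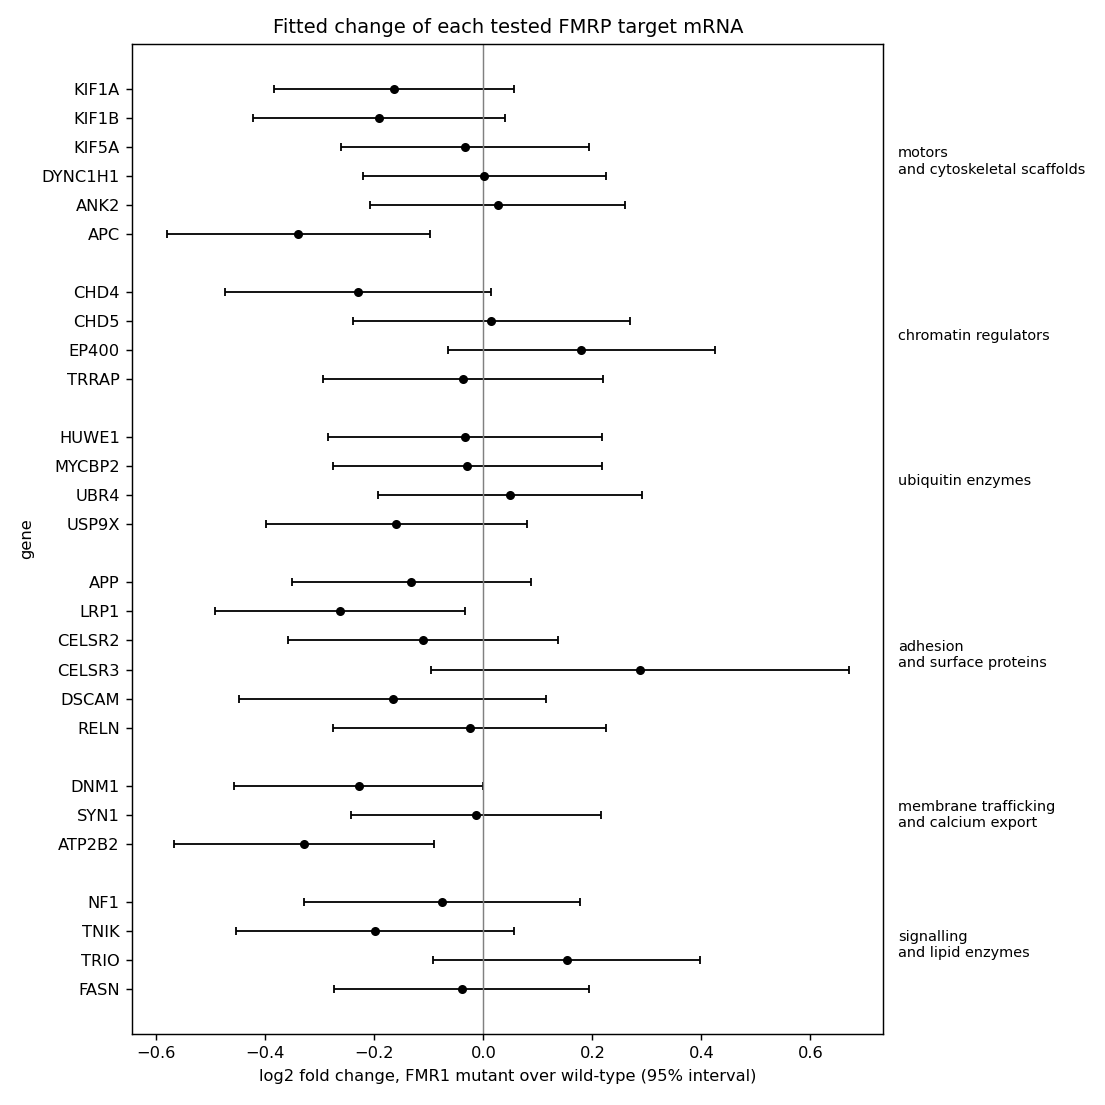
Fitted log2 fold change of each tested FMRP target mRNA, FMR1 mutant over wild-type (horizontal axis), with its 95% interval as a bar, grouped by the role of the protein. The values run from -0.34 for APC to 0.29 for CELSR3, and 0 of the 27 passed the adjusted threshold.

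Within the mutant group the libraries differed, and this was the clearest pattern among the members. In mutant replicate 1, 24 of the 27 were below the mean of the wild-type libraries, with a median log2 ratio of -0.16. In mutant replicate 2, 14 of the 27 were below it, with a median of -0.0115. Over all tested genes, 51.1% and 51.0% lay below the wild-type mean in mutant replicates 1 and 2. Mutant replicate 1 held the lowest value of the 4 libraries for 19 members and the highest for 1, SYN1. Mutant replicate 2 held the highest for 10. For 24 members mutant replicate 2 exceeded mutant replicate 1, whereas this held for 50.0% of all tested genes.

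By their medians, the members thus differed more between the mutant libraries than between the groups, and less between the wild-type libraries. A within-group ratio compares single libraries, while the fold change compares groups of 2. Over the members, the median absolute log2 ratio was 0.064 within the wild-type group and 0.21 within the mutant group, and the median absolute fold change between groups was 0.13. The group difference exceeded both within-group ratios for 7 of the 27. This was not counted over all tested genes, so whether 7 is few or many is not known. Without mutant replicate 2 the median of the members was -0.16, and without mutant replicate 1 it was -0.0113. The 28 rows together took 1.25% of all counts in each wild-type library, and 1.10% and 1.21% in mutant replicates 1 and 2.

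**Figure D2:**
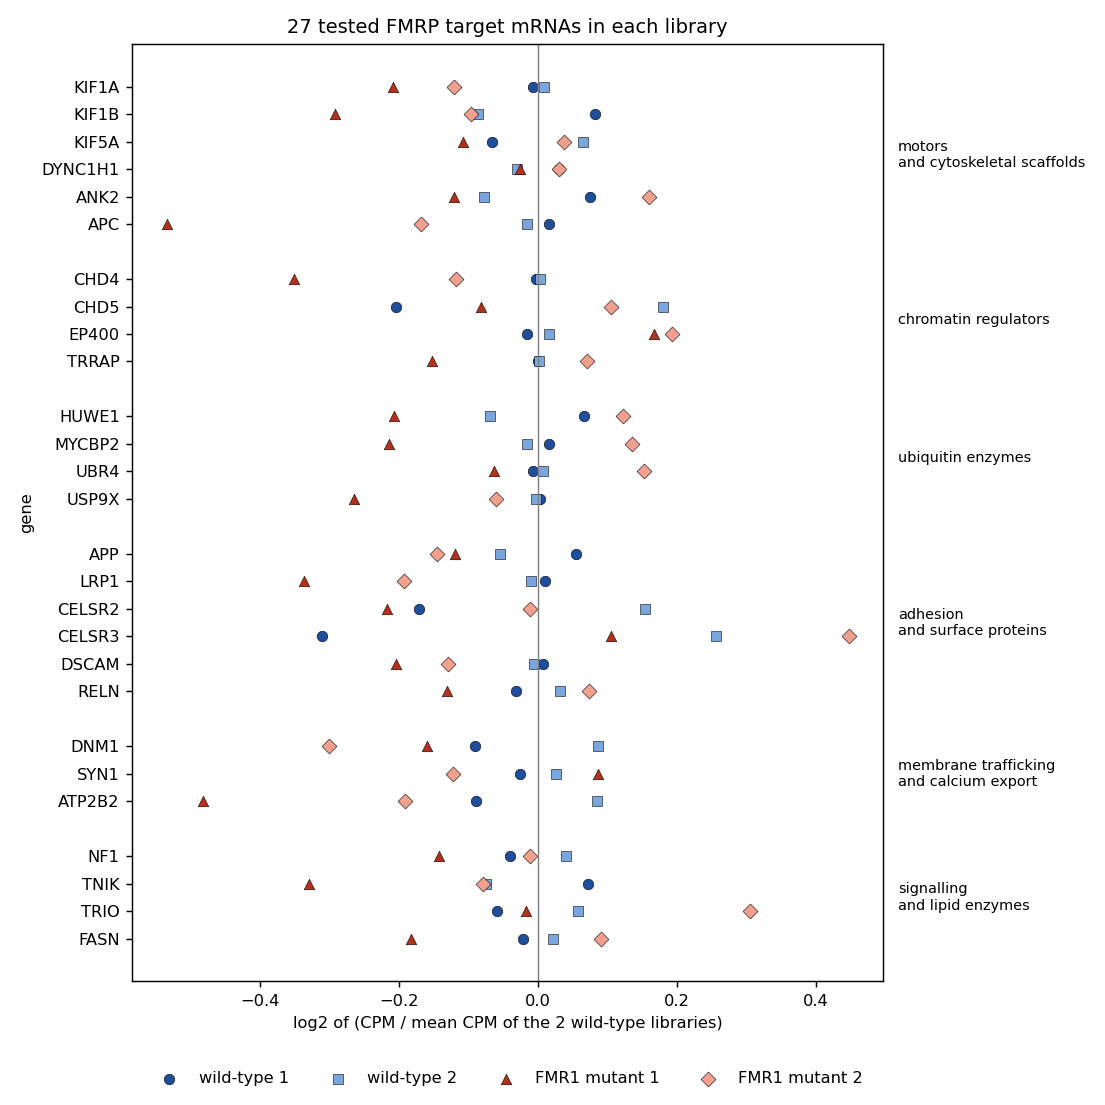
Each tested FMRP target mRNA in each of the 4 libraries, as the log2 of its CPM over the mean CPM of the 2 wild-type libraries (horizontal axis; blue wild-type, red FMR1 mutant), grouped by role. The dark red triangles of mutant replicate 1 are the lowest point for 19 genes, and the light red diamonds of mutant replicate 2 are the highest for 10.

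Motor and cytoskeletal transcripts came first among the roles, with 6 members, 0 called and a median log2 fold change of -0.10. APC, a scaffold that sits at microtubule ends and holds beta-catenin for destruction, had the smallest p of all members. It was at 779.6 and 763 CPM in wild-type replicates 1 and 2, and at 532 and 686 CPM in mutant replicates 1 and 2. Both mutant libraries were below both wild-type libraries, and replicate 1 was far lower than replicate 2. The mean was 771 ± 12.01 CPM in wild-type and 609 ± 109 CPM in mutant libraries (SD, n = 2 each), a log2 fold change of -0.34 (SE 0.12, 95% interval -0.58 to -0.10) with an edgeR adjusted p of 0.147. The gap between the mutant libraries, 0.37 on the log2 scale, was as wide as the gap between groups. Without mutant replicate 2 APC passed the test (-0.53, edgeR adjusted p = 0.0287), and without mutant replicate 1 its fold change was -0.17 (edgeR adjusted p = 0.771). Partners of APC in the destruction of beta-catenin showed no call, with CTNNB1 at -0.01, AXIN1 at 0.01 and GSK3B at -0.14 (4 tested with AXIN2, median -0.01).

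The kinesins carry cargo from the cell body along axons. KIF1A, the motor of synaptic vesicle precursors, was at 1497 and 1513 CPM in the wild-type libraries and at 1302 and 1384 CPM in the mutant libraries, replicate 1 before replicate 2 here and below. The groups did not overlap, yet the log2 fold change of -0.16 (SE 0.11) did not pass (edgeR adjusted p = 0.556). KIF1B, a related motor of mitochondria and vesicles, was at 755 and 672 CPM against 582 and 667 CPM. Its upper mutant value lay just under its lower wild-type value, and the fold change of -0.19 (SE 0.11) did not pass.

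KIF5A, a heavy chain of conventional kinesin that carries neurofilaments and other cargo, was at 671 and 735 CPM against 653 and 721 CPM, with overlapping groups (-0.03, 95% interval -0.26 to 0.19). Its paralog KIF5C was at 1251 and 1362 CPM against 1044 and 1214 CPM (-0.21, SE 0.11, edgeR adjusted p = 0.427). Light chains of the same motor had fold changes of 0.04 (KLC1) and -0.32 (KLC2), and neither passed.

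DYNC1H1, the heavy chain of the dynein motor that runs back to the cell body, was the member nearest to no change. It was at 788 and 755 CPM in the wild-type libraries and at 758 and 788 CPM in the mutant libraries, so the groups lay on top of each other (95% interval -0.22 to 0.22). Of its 7 partners tested, among them PAFAH1B1, NDEL1 and DCTN1, 0 passed, and their values ran from -0.34 for NDE1 to 0.26 for DYNC1I1. ANK2, which ties membrane proteins to the spectrin skeleton of axons, was at 1121 and 1008 CPM against 979 and 1189 CPM. Its lowest and highest values were both in mutant libraries, and its fold change was 0.03 (95% interval -0.21 to 0.26). Its paralog ANK1, named for the ankyrin of red blood cells, was at 23.6 and 25.2 CPM against 16.3 and 18.5 CPM. The ANK1 groups did not overlap, and the fold change of -0.49 (SE 0.17) did not pass (edgeR adjusted p = 0.146). ANK3, the ankyrin of the axon initial segment, was at -0.07. The differences between these paralogs were not tested.

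Chromatin regulators had 4 members, of which 2 were lower and 2 higher, with a median of -0.01. CHD4, the ATPase of the NuRD repressor complex, was at 149 CPM in both wild-type libraries and at 117 and 137 CPM in the mutant libraries. The wild-type values were within an SD of 0.454 CPM, and both mutant values were below them (-0.23, SE 0.12, 95% interval -0.47 to 0.01, edgeR adjusted p = 0.411). Its paralog CHD3, which can take its place in NuRD, was at 642 and 712 CPM against 735 and 829 CPM, with a fold change of 0.21 (SE 0.11) that did not pass either. The difference between the paralogs was not tested.

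Among 11 further NuRD genes tested, 1 fell and 0 rose. The NuRD scaffold GATAD2A was at 33.8 and 34.1 CPM in the wild-type libraries and at 22.9 and 23.2 CPM in the mutant libraries, a log2 fold change of -0.56 (SE 0.15, edgeR adjusted p = 0.0454). This call was not stable, since it was lost whichever library was dropped (edgeR adjusted p between 0.103 and 0.225) and with DESeq2 (0.145), limma-voom (0.0557) and robust = FALSE (0.0518). The deacetylase HDAC2, also of NuRD, was at 0.31 (SE 0.12, edgeR adjusted p = 0.220).

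CHD5, a neuronal relative of CHD4, was at 290.3 and 379 CPM in the wild-type libraries and at 316 and 359.6 CPM in the mutant libraries. The wild-type values enclosed the mutant values, and the fold change was 0.01. EP400, the ATPase of the TIP60 acetyltransferase complex, was the 1 member whose mutant values were both above its wild-type values. It was at 90.6 and 92.6 CPM against 103 and 105 CPM, with 0.18 (SE 0.12, 95% interval -0.07 to 0.43) and an edgeR adjusted p of 0.566. TRRAP, a large scaffold of the same and other acetyltransferase complexes, was at 84.8 CPM in both wild-type libraries and at 76.3 and 89.0 CPM in the mutant libraries, which lay on either side.

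Of 9 genes listed as partners of TRRAP and EP400, such as KAT5, the TIP60 acetyltransferase itself, all 9 had a fold change above 0 and 0 passed (median 0.17). The largest were the bromodomain protein BRD8 at 0.37 (SE 0.13, edgeR adjusted p = 0.145) and the ATPase RUVBL2 at 0.34 (edgeR adjusted p = 0.279).

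Ubiquitin enzymes had 4 members, all below the wild-type mean in mutant replicate 1 and 3 of them above it in mutant replicate 2. HUWE1, a ligase that acts on histones and transcription factors, was at 171 and 156 CPM in the wild-type libraries and at 141 and 177 CPM in the mutant libraries. MYCBP2, a ligase that shapes axons and synapses, was at 227 and 222 CPM against 193 and 246 CPM. UBR4, a ligase that recognises destabilising N-termini, was at 139 and 141 CPM against 134 and 155 CPM. In each of these 3 the mutant values enclosed the wild-type values, and the fold changes were -0.03, -0.03 and 0.05.

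USP9X removes ubiquitin instead of adding it. It was at 173 CPM in both wild-type libraries and at 144 and 166 CPM in the mutant libraries, all of the latter below the former, with a fold change of -0.16 (SE 0.12, 95% interval -0.40 to 0.08). USP9X has a related copy on the Y chromosome in many mammals. No source used here says how the authors treated reads shared by such copies, so its counts are uncertain in that respect. Among paralogs of UBR4, UBR1 was at -0.21, UBR2 at -0.10 and UBR3 at -0.04, and none of these 3 passed.

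Adhesion and surface proteins had 6 members, 5 of them below 0. APP, the precursor of amyloid beta, was at 1798 and 1667 CPM in the wild-type libraries and at 1595 and 1566 CPM in the mutant libraries. The groups did not overlap, the fold change was -0.13 (SE 0.11, 95% interval -0.35 to 0.09), and APP was 1 of the 3 tested members that were not higher in mutant replicate 2 than in replicate 1. Its paralogs lay nearby, APLP1 at -0.11 and APLP2 at -0.12, and of 5 genes of the secretases that cut APP 0 passed (-0.17 to -0.01).

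LRP1, an endocytic receptor for lipoproteins and proteases that neurons and glia share, was at 397 and 392 CPM against 312 and 345 CPM. Both mutant values were below both wild-type values. The mean was 394 ± 3.82 CPM in wild-type and 328 ± 23.3 CPM in mutant libraries (SD, n = 2 each), a log2 fold change of -0.26 (SE 0.11, 95% interval -0.49 to -0.03) with an edgeR adjusted p of 0.282. Of 8 astrocyte markers tested, 2 fell and 0 rose. Their summed level was 5061 and 4885 CPM in the wild-type libraries and 3548 and 3893 CPM in the mutant libraries, with no marker at 0. Whether a change in astrocyte RNA had a part in the LRP1 values was not tested. In bulk tissue fewer cells of a type and less RNA per cell cannot be told apart.

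CELSR2 and CELSR3 are seven-pass cadherins of planar polarity that guide axon tracts, and both were lower in wild-type replicate 1 than in wild-type replicate 2. CELSR3 was at 53.7 and 79.6 CPM in the wild-type libraries and at 71.7 and 90.9 CPM in the mutant libraries. It had the largest positive fold change and the widest error of the tested members (0.29, SE 0.18, 95% interval -0.10 to 0.67, edgeR adjusted p = 0.541). The value depended on which libraries were used. Without wild-type replicate 2, which left replicate 1 as the only control, CELSR3 passed at 0.60 (edgeR adjusted p = 0.0186), and without wild-type replicate 1 its fold change was 0.03. Dropping a mutant library moved it too, to 0.45 (replicate 1 dropped) or 0.11 (replicate 2 dropped). CELSR2 was at 297 and 373 CPM against 288 and 332 CPM (-0.11, SE 0.12), with overlapping groups. The library with the low CELSR3, CELSR2 and CHD5 values among the controls was also the one with the high thalamic markers. The part of that difference in these values was not tested.

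DSCAM, a homophilic adhesion molecule of dendrite spacing, was at 44.4 and 44.0 CPM against 38.3 and 40.4 CPM. The groups did not overlap, and the difference of -0.17 (SE 0.14) did not pass. RELN, the secreted glycoprotein that positions migrating neurons, was at 97.6 and 102 CPM against 91.2 and 105 CPM, so its mutant values enclosed its wild-type values (-0.03, 95% interval -0.28 to 0.23). Markers of Cajal-Retzius cells, an early source of RELN, summed to 178 and 147 CPM against 176 and 141 CPM. CALB2, which interneurons also express, gave most of this, and LHX1, LHX5 and EBF3 were too low to be tested, though none was at 0 in any library. Of the RELN receptors, VLDLR was at -0.08 and LRP8 at -0.21. DAB1, the adaptor below both, was at 71.1 and 68.6 CPM against 88.3 and 93.5 CPM (0.38, SE 0.13, edgeR adjusted p = 0.114). The DAB1 groups did not overlap, and none of the 3 passed.

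Trafficking and calcium export had 3 members, all below 0, and 2 of the 4 with an unadjusted p under 0.05. ATP2B2, a plasma membrane pump that clears calcium from neurons, was at 633 and 714 CPM in the wild-type libraries and at 482 and 589.7 CPM in the mutant libraries. Both mutant values were below both wild-type values. The mean was 673 ± 57.4 CPM against 536 ± 76.2 CPM (SD, n = 2 each), a log2 fold change of -0.33 (SE 0.12, 95% interval -0.57 to -0.09) with an edgeR adjusted p of 0.159. With 1 library left out it stayed below 0, between -0.48 and -0.19, and did not pass (edgeR adjusted p at least 0.0605). Its paralogs were also below 0 in each case, with ATP2B3 at -0.41 (edgeR adjusted p = 0.101), ATP2B4 at -0.35 (0.185) and ATP2B1 at -0.12 (0.722). Without wild-type replicate 1, ATP2B3 (-0.53, edgeR adjusted p = 0.0497) and ATP2B4 (-0.52, 0.0356) passed.

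DNM1, the GTPase that pinches off synaptic vesicles, was at 795 and 899 CPM against 758 and 687 CPM. It differs from most members in being lower in mutant replicate 2 than in replicate 1. The groups did not overlap, and the fold change of -0.23 (SE 0.11) had an edgeR adjusted p of 0.372. Its paralogs DNM2 and DNM3 were at -0.02 and 0.04. SYN1, which tethers synaptic vesicles in reserve, was at 516 and 535 CPM against 558 and 483 CPM, so the mutant values enclosed the wild-type values (-0.01). SYN2, which shares that task, was at 76.3 and 96.4 CPM against 60.4 and 65.4 CPM, with the groups apart and a fold change of -0.46 (SE 0.13) at an edgeR adjusted p of 0.0609. SYN3, expressed in young neurons, was at 0.34 (SE 0.16, edgeR adjusted p = 0.400). SYN2 passed without wild-type replicate 1 (-0.62, edgeR adjusted p = 0.0113) and with no low-count filter (0.0246), and SYN3 passed without mutant replicate 1 (0.58, 0.0218). The differences between these paralogs were not tested.

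Signalling and lipid enzymes had 5 members, 4 of them tested. NF1, which switches off RAS, was at 84.3 and 89.1 CPM against 78.5 and 85.9 CPM, with overlapping groups (-0.08, SE 0.12). The NF1 partners SPRED1 and SPRED2 were at -0.10 and -0.11, and neither passed. TNIK, a kinase of WNT signalling and the postsynapse, was at 113 and 102 CPM against 85.4 and 102 CPM. Its upper mutant value was just under its lower wild-type value (-0.20, SE 0.13, edgeR adjusted p = 0.527). TRIO, an exchange factor that activates small GTPases in growing axons, was at 224 and 243 CPM against 231 and 289 CPM. Its fold change of 0.15 (SE 0.12) came from mutant replicate 2, without which it was -0.01.

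FASN, the enzyme that builds palmitate, was at 489.9 and 504.5 CPM in the wild-type libraries and at 438 and 529 CPM in the mutant libraries. The mutant values enclosed the wild-type values, and the fold change was -0.04 (95% interval -0.27 to 0.19). Oligodendrocytes use much of this lipid for myelin, and their markers were lower in the same mutant libraries. Of 12 tested, 11 fell, and their summed level was 3669 and 3593 CPM in the wild-type libraries and 1399.8 and 1347 CPM in the mutant libraries, with no marker at 0. The FASN groups overlapped in the same libraries in which those 11 myelin markers did not overlap. The part of the myelin difference in the FASN values was not tested. ACLY, which supplies the acetyl-CoA for FASN, was at -0.26 (SE 0.12, edgeR adjusted p = 0.309), and ACACA at -0.05.

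DGKK, a diacylglycerol kinase whose mRNA is bound by FMRP in neurons, could not be tested because of its low counts. It was counted 10 and 18 times in the wild-type libraries and 4 and 8 times in the mutant libraries. Scaled by library size, these are 0.754 and 1.47 CPM against 0.305 and 0.594 CPM, so the mutant values were below the wild-type values. The sums of 28 and 12 counts, scaled by the total counts of each group, give a wild-type over mutant ratio of 2.43. Its exact 95% counting interval, scaled in the same way, is 1.19 to 5.24. The interval covers counting error only and not the spread between samples. In the fit with no low-count filter the log2 fold change was -1.28 (SE 0.71) at an edgeR adjusted p of 0.548, and by DESeq2 it was -1.30 (adjusted p = 0.936). Neither of these fits called DGKK. Other diacylglycerol kinases were counted more often, and DGKB, DGKD, DGKH and DGKZ ran from -0.23 to -0.09 with 0 passing.

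Other gene lists showed how far the pattern between the mutant libraries reached. Of 38 paralogs of the members, 0 were called, 29 were below 0 and the median was -0.11. Mutant replicate 2 exceeded replicate 1 in 33 of the 38. Of 34 further FMRP targets, 0 were called, 21 were below 0 and 13 above it, and the median was -0.04. The 4 with the smallest p were MAP1A, AGAP2, SYNE1 and KMT2D (-0.23, -0.22, -0.22 and -0.23), all on the lower side. Their edgeR adjusted p ran from 0.353 to 0.505, and KMT2D was at -0.0122 without mutant replicate 1. At an unadjusted p under 0.05, edgeR had 1 of the 34 lower and 0 higher, which is 2.94% against 13.4% of all tested genes. Mutant replicate 2 was above replicate 1 in 33 of those 34. CHD8 stands in both of these lists.

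Of 29 FMRP targets of the synapse and of ion channels, 2 fell and 0 rose, with a median of -0.18. The 2 were ARC, a cytoskeletal protein of active synapses (-1.37, SE 0.23), and BSN, a presynaptic scaffold (-0.45, SE 0.12). Neither passed in every fit with 1 library left out, as ARC did not without mutant replicate 1 (edgeR adjusted p = 0.517) or mutant replicate 2 (0.358), and BSN passed in none of the 4 (0.0511 to 0.223). The NMDA receptor subunit GRIN2A (-0.35, edgeR adjusted p = 0.15) and the postsynaptic scaffold DLGAP3 (-0.32, 0.163) came next. In 25 of the 29, mutant replicate 2 was above replicate 1. Whether these targets differ from the 27 members was not tested.

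The 50 ligands and partners of the members did not share that order. Mutant replicate 2 exceeded replicate 1 in 26 of them, their median was -0.01, and 1, GATAD2A, was called. For genes of the respiratory chain and of cytosolic ribosomal proteins the order was the reverse, with mutant replicate 2 above replicate 1 in 0 of 8 and 0 of 15. The ribosomal protein transcripts summed to 4965 and 4361 CPM in the wild-type libraries and to 6801 and 5552 CPM in mutant replicates 1 and 2. The library with the lowest values of most FMRP targets was thus also the one with the most ribosomal protein RNA. Whether that difference between libraries had a part in the values of the members was not tested.

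**Figure D3:**
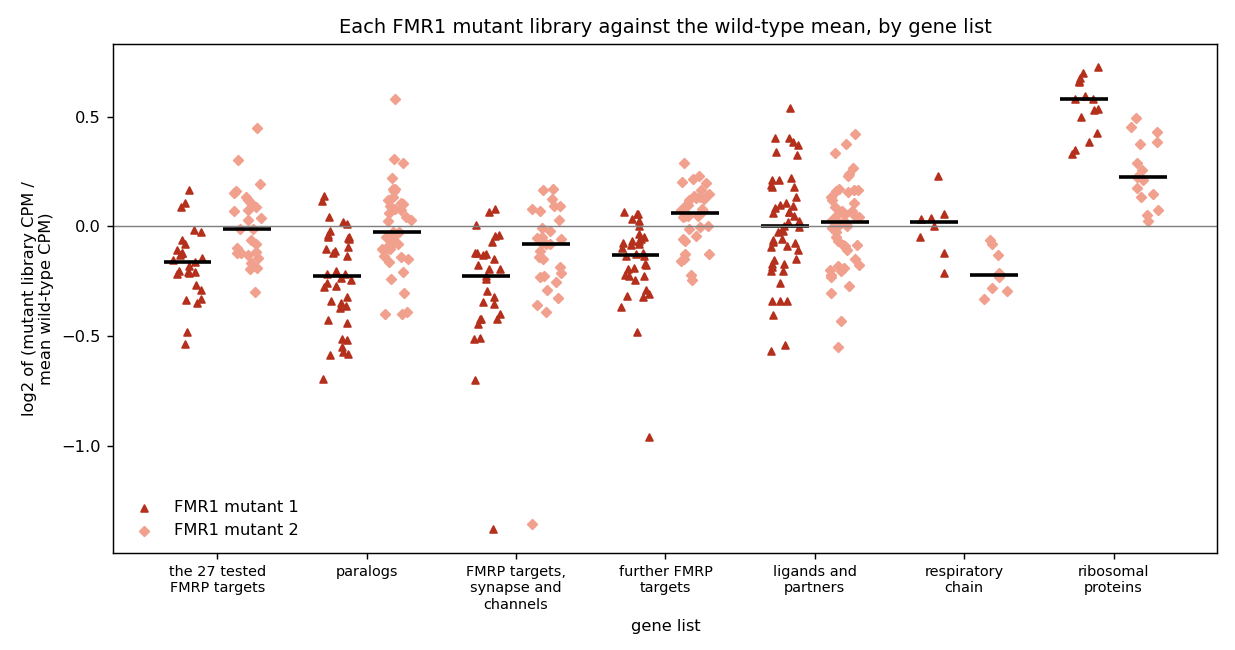
Log2 of the CPM in each FMR1 mutant library over the mean wild-type CPM (vertical axis) for each tested gene of 7 lists, with a black bar at each list's median. The members have medians of -0.16 in mutant replicate 1 and -0.0115 in mutant replicate 2, and ribosomal protein genes have medians of 0.58 and 0.23.

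Leaving out each library in turn moved the small values across 0. With 1 library left out, 13 of the 27 members changed sign in at least 1 fit, among them KIF5A, DYNC1H1, ANK2, HUWE1, RELN and FASN. The other 14 kept 1 sign in all 12 alternatives that were fitted. These were KIF1A, KIF1B, APC, CHD4, USP9X, APP, LRP1, DSCAM, DNM1, ATP2B2, NF1 and TNIK below 0, and EP400 and CELSR3 above it. The size of several of these was less stable than the sign. Without mutant replicate 1, NF1 was at -0.0123, USP9X at -0.0615, TNIK at -0.0794, KIF1B at -0.0970 and CHD4 at -0.12. Without mutant replicate 2 the same genes were at -0.14, -0.26, -0.33, -0.29 and -0.35. APP was nearest to 0 without wild-type replicate 1 (-0.0767), and DNM1 without wild-type replicate 2 (-0.14). EP400 had a narrow range, from 0.16 to 0.20.

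**Figure D4:**
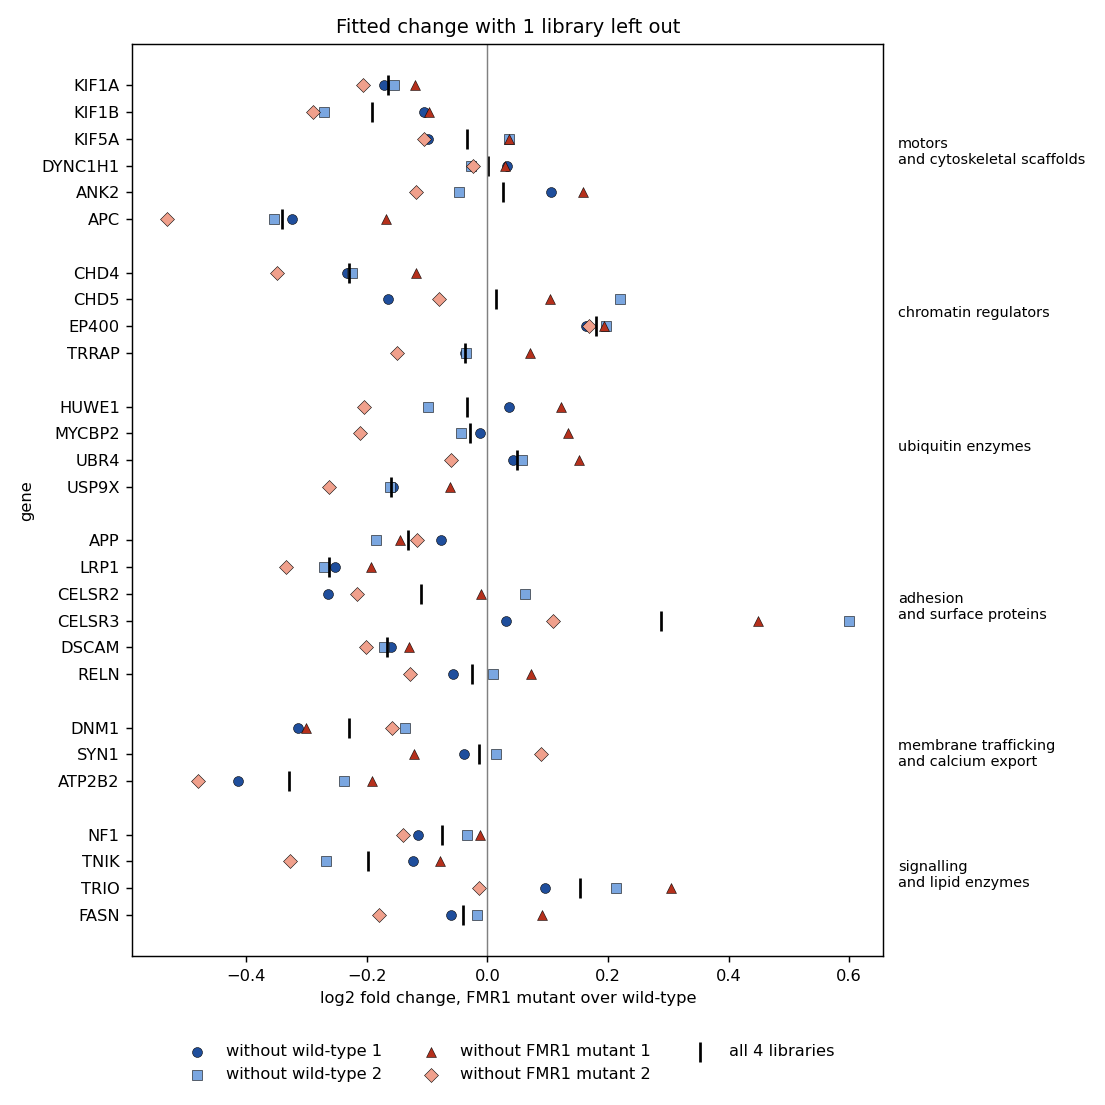
Fitted log2 fold change, FMR1 mutant over wild-type (horizontal axis), of each tested FMRP target mRNA with all 4 libraries (black bar) and with 1 library left out (coloured points). Without mutant replicate 2 the values lie lowest for most genes (APC at -0.53), and CELSR3 moves to 0.60 without wild-type replicate 2.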

How the data were processed

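Poly(A) RNA-seq was made with a directional kit, per the labels' protocols, and Trimmomatic 0.38 and STAR 2.7.10a are listed in the submitters' processing notes. The authors deposited raw whole-number counts for each gene. No source used here states the counting tool, build, annotation or strandedness of the counts. Whether reads of overlapping or antisense genes were told apart is therefore not known.

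Counts were analysed with R 4.3.3 and edgeR 4.0.16 on all genes together: filterByExpr at a minimum count of 10 (16956 of 35205 genes kept), TMM scaling, a robust quasi-likelihood test, and Benjamini-Hochberg adjustment across the tested genes at 0.05. The fit had 2 residual and a median of 31.6 prior degrees of freedom. CPM uses the TMM-scaled library sizes. The SE is the size of the log2 fold change over the square root of F. Replicates differed beyond sampling noise (chi-square per degree of freedom 7.28 and 6.90), and each library was treated as 1 replicate. This spread does not show that the libraries came from separate animals. The test was also run on simulated counts, drawn for each gene independently from the fitted dispersions. Such counts cannot show how the test handles a shift shared by many genes in 1 library. Alternatives were RLE and upper quartile scaling, DESeq2 1.42.0, limma-voom (limma 3.58.1), other filters, robust = FALSE, the replicate number as a block, and each library left out with the tested genes held fixed.

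The members and gene lists were chosen with earlier results of these data known. All 28 members were named. From companion lists, up to 4 genes with the smallest p and some direct paralogs or partners of members were named. Protein or transcript length, planned as a description, was not used here. A few genes of the companion lists are not reported here by name.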

Additional observations from a re-analysis of the deposited data

How the results depend on the processing

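No member was called by edgeR with RLE or upper quartile scaling, a filter at a mean of 1 CPM, no low-count filter, robust = FALSE or the replicate block, nor by DESeq2 or limma-voom, and under these 8 alternatives 0 member values changed sign. With 1 library left out, where the lone library is assumed to vary like the others, the count of called members ran from 0 to 1 (CELSR3 without wild-type replicate 2, APC without mutant replicate 2). The median of the members ran from -0.158 to -0.0113. All called genes numbered 163 (without mutant replicate 1) to 562 (without wild-type replicate 2), 220 without mutant replicate 2, 244 by DESeq2 and 633 with no low-count filter. Left-out ranges of members that changed sign were -0.105 to 0.0365 for KIF5A, -0.0269 to 0.0327 for DYNC1H1, -0.12 to 0.16 for ANK2, -0.16 to 0.22 for CHD5, -0.15 to 0.0702 for TRRAP, -0.21 to 0.12 for HUWE1, -0.21 to 0.13 for MYCBP2, -0.0609 to 0.15 for UBR4, -0.26 to 0.0622 for CELSR2, -0.13 to 0.0731 for RELN, -0.12 to 0.0890 for SYN1, -0.0145 to 0.30 for TRIO and -0.18 to 0.0899 for FASN. The cause was not tested. Replicate numbers do not pair the samples by any label. Across genes the replicate differences of the groups correlated at 0.0275, and the replicate block raised the calls over all genes to 493. Depth was lowest for DGKK, the 1 member that was not tested.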
